A study of Macaca mulatta with 5 samples.

Results

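The BCL2 family sets the threshold at which a cell commits to mitochondrial apoptosis. Its 10 members described here were the rows of the deposited rhesus macaque (Macaca mulatta) table named MCL1, BCL2L1, BCL2, BAX, BAK1, PMAIP1, BCL2L11, BID and BIK, plus BBC3, whose row has no name and was found by its Ensembl ID. They are 10 of the 16970 genes in the table, and all 10 passed the filter on low values used for the tests.

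RNA sequencing covered 5 libraries of neural cells grown from monkey embryonic stem cells, with no genetic change stated. Neuroepithelial stem cells (NESC), the first progenitors of the neural tube, gave 1 library each at passages 5, 24 and 36. Their Neurobasal medium held the WNT agonist and GSK3 inhibitor CHIR99021 (3 µM), the TGF-beta pathway blocker SB431542 (5 µM), bFGF (10 ng/ml) and hLIF (1000 U/ml). The radial glial progenitor library (RGPC) came from NESC held for 7 days without CHIR99021 but with the other agents at the same concentrations. Its title carries passage 36. Neurons came from passage 36 NESC after 13 days in differentiation medium, which lists none of these 4 agents, on plates coated with laminin and gelatin. RGPC and neurons had 1 library each, so each p-value rests on the spread between the 3 NESC passages alone, and nothing says whether these were separate cultures.

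Apoptosis through mitochondria is decided by binding between 3 kinds of BCL2 protein, as worked out in human and mouse cells. Guardians (MCL1, BCL-XL from BCL2L1, and BCL2) hold the effectors BAX and BAK in check. BH3-only proteins (NOXA from PMAIP1, PUMA from BBC3, BIM from BCL2L11, BID and BIK) neutralise guardians or activate effectors, after which effectors open the outer membrane and released cytochrome c starts caspase activation. Neural progenitors and newborn neurons are known to depend on MCL1 and BCL-XL in mouse development, and neurons are known to raise their resistance to this pathway as they mature.

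Between 5403437 and 7899991 whole reads were recovered per library. Markers of neurons and NESC moved as labelled. The summed level of 4 cycling markers (MKI67, TOP2A, CCNB1 and CCNB2) ran from 453 to 721 FPKM in NESC with 548 for RGPC and 22.6 for neurons, while that of 6 neuronal markers ran from 315 to 471 in NESC and was 803 in RGPC and 4073 in neurons, with RBFOX3 listed at 0 there. The 4 neural progenitor markers summed to between 778 and 1077 FPKM in NESC, and came to 945 in RGPC and 262 in neurons. Of 4 mesoderm and fibroblast markers, the sum was 57.4 FPKM in passage 5 NESC, 10.8 at passage 24 and at most 1.89 elsewhere. The 4 radial glia markers did not set RGPC apart as a sum, which was 232 to 1549 FPKM in NESC, 1419 in RGPC and 980 in neurons. SOX9 stood at 41.2 FPKM in RGPC against 2.19 to 4.85 in NESC, but also at 31.2 in neurons. SLC1A3 was highest in neurons, at 200 FPKM against 56.6 in RGPC and 16.8 to 37.9 in NESC. HES5 and FABP7 were lower in neurons (44.6 and 704 FPKM) than in RGPC (122 and 1199). In NESC HES5 ran from 13.5 to 65.4 FPKM, below RGPC. FABP7 ran from 193 to 1505 in NESC, a range that holds its RGPC value.

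In neurons, 4 of the 10 members fell against NESC and none rose (limma, adjusted p under 0.05), in a comparison where 27.5% of all genes were called (13.3% lower and 14.3% higher). The 4 were the BH3-only genes PMAIP1 and BCL2L11 and both effectors, BAX and BAK1. The median log2 fold change of the members in neurons was −0.92, against 0.01 over all genes tested, and in RGPC −0.23 against 0.10. No member was called in RGPC, where 0.727% of all genes were (0.714% higher and 0.0137% lower). In these bulk libraries fewer cells of a type and less RNA per cell cannot be told apart. The summed cycling markers were also lower in neurons, at 22.6 FPKM. In RGPC their sum of 548 lay within the NESC range of 453 to 721. The part of cycling cells was not tested.

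**Figure D1:**
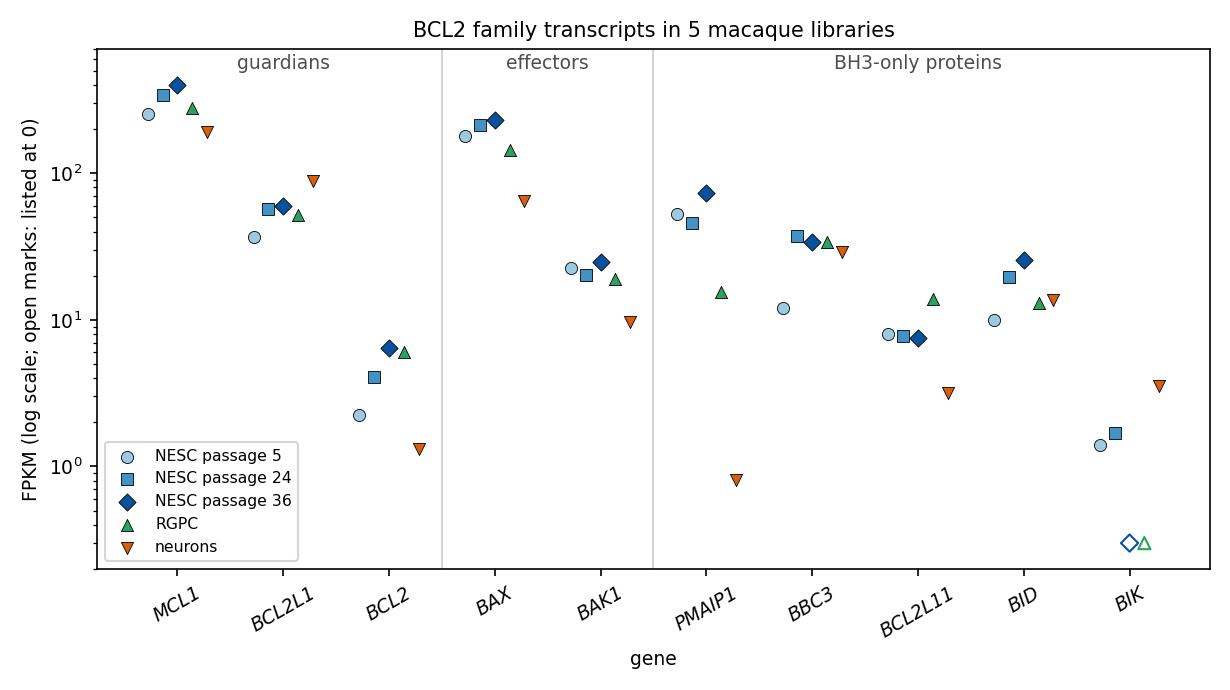
FPKM (log scale) of the 10 members in the 5 libraries, grouped by role, 1 mark per library and open marks for values listed at 0. PMAIP1 goes from 45.5 to 73.0 FPKM in NESC to 15.4 in RGPC and 0.808 in neurons. Among the guardian members shown, only BCL2L1 has its highest value, 88.7, in neurons.

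MCL1 (ENSMMUG00000008221, chromosome 1, 128958157 to 128963201), a short-lived guardian that NOXA targets, was the most abundant member in every library. It stood at 254, 343 and 396 FPKM in NESC at passages 5, 24 and 36, the order used for all NESC values, at 279 in RGPC and at 190 in neurons. The neuronal value lay below every NESC value, and that of RGPC lay among them. The log2 fold change in neurons was −0.77 ± 0.31 (SE, limma, on log2(FPKM + 1)) and did not pass (adjusted p = 0.163). Against passage 36 alone, reads gave a ratio of 0.515 in neurons (95% counting interval 0.494 to 0.538) and 0.738 in RGPC (0.712 to 0.765). Such intervals compare single libraries and cover counting error only.

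BCL2L1 (ENSMMUG00000005985, chromosome 10, 32850593 to 32909535) encodes BCL-XL, the long-lived guardian of neurons. It stood at 36.5, 56.7 and 60.0 FPKM in NESC, 51.9 in RGPC and 88.7 in neurons. Neurons lay above all NESC values and RGPC among them. The log2 fold change in neurons, 0.82 ± 0.37, did not pass (limma, adjusted p = 0.190), and the ratio to passage 36 was 1.51 (counting interval 1.23 to 1.85, from 198 and 192 reads). In RGPC the log2 fold change was 0.06 ± 0.37 and turned negative with median-of-ratios scaling (−0.060), by edgeR (−0.11) and without passage 5 (−0.16).

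BCL2 (ENSMMUG00000006577, chromosome 18, 56502509 to 56699847), the founding guardian, was low throughout. It stood at 2.23, 4.09 and 6.45 FPKM in NESC, 5.998 in RGPC and 1.31 in neurons, and these values rest on 4, 7, 15, 11 and 2 reads. The neuronal difference (log2 −1.11 ± 0.58) did not pass (limma, adjusted p = 0.241), and the ratio to passage 36 had a counting interval of 0.0216 to 0.838.

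Shares of the guardians were not tested. MCL1 made up 86.8%, 85.0% and 85.6% of the summed FPKM of the guardian members in NESC. It made up 82.8% in RGPC and 67.9% in neurons, where BCL2L1 made up 31.7%. BCL2L2, another guardian gene, is outside this sum. It stood at 26.5, 19.2 and 18.2 FPKM in NESC, 27.4 in RGPC and 35.4 in neurons. Its difference in neurons did not pass (limma, adjusted p = 0.154). BCL2L1 was 0.144, 0.165 and 0.151 times the level of MCL1 in NESC, 0.186 times in RGPC and 0.466 times in neurons. The guardian sum itself was 280 FPKM in neurons, against 293 to 463 in NESC and 336 in RGPC.

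**Figure D2:**
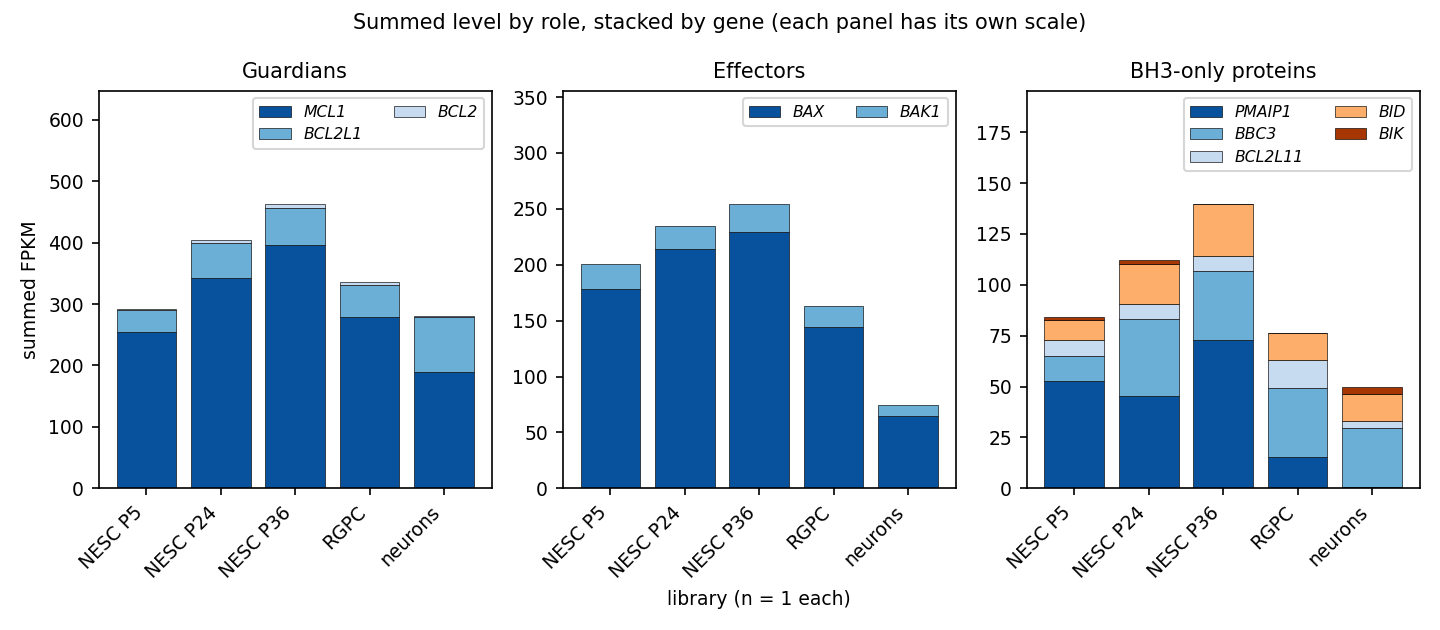
Summed FPKM of the guardian, effector and BH3-only members in each library (n = 1 library per bar), stacked by gene. Each panel has its own axis from 0. Effectors sum to 201 to 254 FPKM in NESC and 74.3 in neurons, and PMAIP1 holds the largest BH3-only share in NESC and 1.62% in neurons.

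BAX (ENSMMUG00000003907, chromosome 19, 55237094 to 55244271), the effector that moves from the cytosol to mitochondria, stood at 178, 214 and 229 FPKM in NESC, 144 in RGPC and 64.7 in neurons. Both lone libraries lay below all NESC values, and neurons were the lowest. BAX fell in neurons (log2 fold change −1.65 ± 0.19, limma, adjusted p = 0.0245), to a 3.20-fold lower FPKM than the NESC mean of 207 ± 26.5 (SD, n = 3). In RGPC the log2 fold change of −0.51 ± 0.19 did not pass (adjusted p = 0.389). The ratios to passage 36 were 0.274 in neurons (counting interval 0.226 to 0.331) and 0.653 in RGPC (0.573 to 0.743).

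BAK1 (ENSMMUG00000009104, on the sequence named 1099214732730, 14368 to 21679), which encodes the effector resident at mitochondria, stood at 22.7, 20.3 and 24.7 FPKM in NESC, 18.9 in RGPC and 9.59 in neurons. NESC varied little (22.6 ± 2.20 FPKM, SD, n = 3) and both lone libraries lay below them. BAK1 fell in neurons (log2 fold change −1.15 ± 0.18, limma, adjusted p = 0.0361), with 2.35-fold lower FPKM, and its difference in RGPC, −0.24 ± 0.18, did not pass (adjusted p = 0.607).

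BAX and BAK1 together came to 0.685, 0.580 and 0.549 times the guardian sum in NESC, 0.485 times in RGPC and 0.265 times in neurons. BCL2L2 and BOK, another effector gene, are outside these sums. BOK stood at 18.2, 27.4 and 24.1 FPKM in NESC, 35.2 in RGPC and 11.6 in neurons. It did not pass (limma, adjusted p = 0.462 in RGPC and 0.107 in neurons). BAX exceeded BAK1 in every library, by 7.85, 10.5 and 9.28 times in NESC, 7.64 times in RGPC and 6.75 times in neurons. These ratios compare levels per length in FPKM and have no replicate in RGPC or neurons.

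PMAIP1 (ENSMMUG00000012622, chromosome 18, 53156050 to 53160285) encodes NOXA, a stress-induced protein that binds MCL1 and promotes its destruction. It stood at 52.8, 45.5 and 73.0 FPKM in NESC (768, 508 and 1136 reads), 15.4 in RGPC (192 reads) and 0.808 in neurons (9 reads). Every NESC value lay above that of the lone RGPC library, which lay above that of the lone neuron library. PMAIP1 fell in neurons (log2 fold change −4.98 ± 0.34, limma, adjusted p = 0.0142), and its FPKM was 70.7-fold lower than the NESC mean of 57.1 ± 14.3 (SD, n = 3). By edgeR on reads the log2 fold change was −6.10 (adjusted p = 0.00125). Against passage 36 alone the level was 86.4-fold lower (counting interval 45.4 to 189).

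In RGPC PMAIP1 was the 1 member that was both outside the range of NESC and 2-fold or more from their mean, being 3.71-fold lower. That rule took 15.5% of all genes, and 4.26% of all genes were lower by it. The log2 fold change of −1.80 ± 0.34 did not pass over all genes by limma (unadjusted p = 0.0120, adjusted p = 0.286) or by edgeR (−2.02, unadjusted p = 0.00089, adjusted p = 0.229). RGPC were 4.62-fold lower than passage 36 NESC (counting interval 3.96 to 5.41).

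Among the members PMAIP1 was the largest BH3-only contributor in NESC, at 62.7%, 40.6% and 52.3% of their summed BH3-only FPKM. It made up 20.2% in RGPC and 1.62% in neurons. MCL1 exceeded PMAIP1 4.81, 7.55 and 5.43 times in NESC, 18.1 times in RGPC and 235 times in neurons.

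BCL2L11 (ENSMMUG00000018423, chromosome 13, 110493054 to 110533259) encodes BIM, which binds all guardians and is driven by FOXO factors and restrained by ERK. It stood at 8.02, 7.78 and 7.48 FPKM in NESC, 13.9 in RGPC and 3.16 in neurons, from 33, 27, 37, 52 and 11 reads. NESC hardly varied, RGPC lay above them and neurons below. It fell in neurons against NESC (log2 fold change −1.08 ± 0.18, limma, adjusted p = 0.0403), but not by edgeR (−1.23, adjusted p = 0.136). In RGPC the log2 fold change of 0.76 ± 0.18 did not pass (limma, unadjusted p = 0.0238, adjusted p = 0.309), and the ratio to passage 36 was 1.80 (counting interval 1.16 to 2.82). BCL2L11 was 0.152, 0.171 and 0.102 times the level of PMAIP1 in NESC, 0.901 times in RGPC and 3.91 times in neurons.

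BBC3 (ENSMMUG00000012466, chromosome 19, 53552209 to 53563245) encodes PUMA, a BH3-only protein that can bind each of the guardians. It stood at 12.1, 37.5 and 33.7 FPKM in NESC, 33.8 in RGPC and 28.9 in neurons, so passage 5 was low and the other 4 libraries were alike. Only 9, 24, 28, 23 and 16 reads lie behind these levels: the deposited gene model gave 0.691 normalized reads per FPKM, against 16.9 for MCL1 and 12.9 for PMAIP1. Its log2 fold change was 0.43 ± 0.80 in RGPC and 0.21 ± 0.80 in neurons (limma, adjusted p = 0.824 and 0.864), and without passage 5 both turned negative (−0.070 and −0.29). Among the members BBC3 made up 44.5% of the BH3-only sum in RGPC and 57.9% in neurons, against 14.3% to 33.5% in NESC. BAD, outside this sum, stood at 30.8, 34.8 and 48.5 FPKM in NESC, 46.9 in RGPC and 40.3 in neurons. BMF, given below, is outside it too.

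BID (ENSMMUG00000020799, chromosome 10, 62434278 to 62450271), which links death receptors to mitochondria, stood at 9.96, 19.5 and 25.5 FPKM in NESC, 13.0 in RGPC and 13.5 in neurons. Both lone libraries lay within the NESC range, and neither difference passed (log2 −0.37 ± 0.62 in RGPC and −0.32 ± 0.62 in neurons, limma, adjusted p = 0.7998 and 0.723). Relative to passage 36 alone the ratio was 0.521 in RGPC (counting interval 0.310 to 0.850) and 0.520 in neurons (0.3001 to 0.868).

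BIK (ENSMMUG00000004739, chromosome 10, 87088926 to 87110905), a BH3-only protein of the endoplasmic reticulum, was the scarcest member in NESC and RGPC. It had 3 reads each at passages 5 and 24 (1.39 and 1.68 FPKM), was listed at 0 at passage 36 and in RGPC, and had 6 reads in neurons (3.54 FPKM). No difference passed (limma, adjusted p = 0.624 in RGPC and 0.268 in neurons), and another gene of the table, ENSMMUG00000016280, overlaps its locus.

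**Figure D3:**
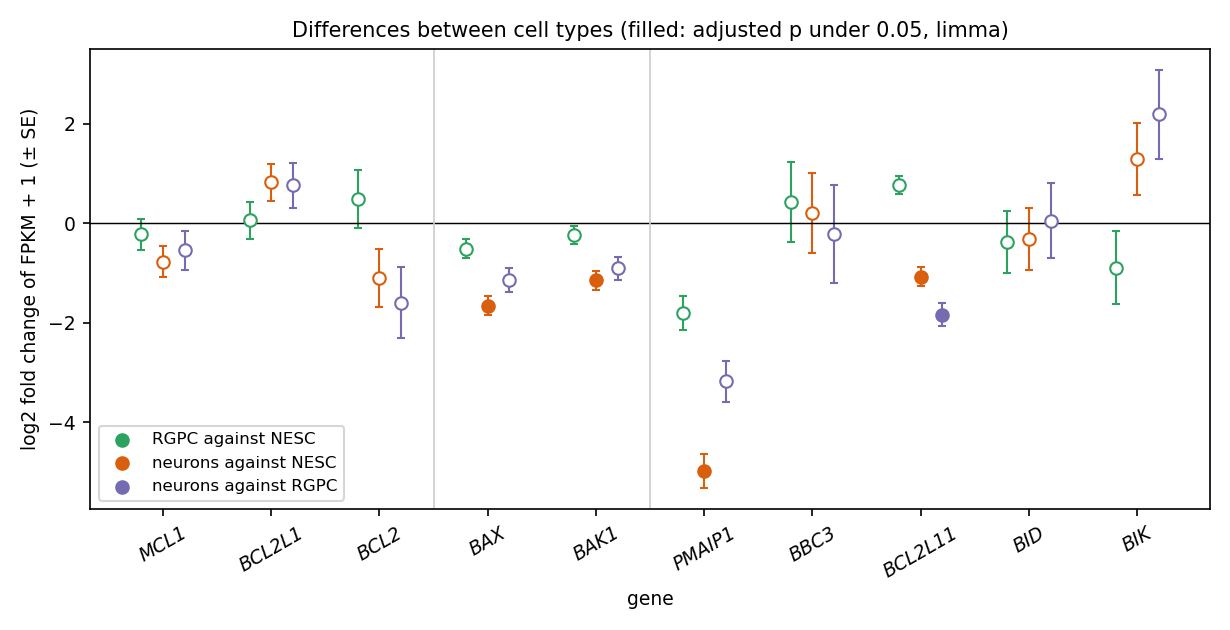
Log2 fold change of FPKM + 1 (± SE from limma) of each member in the 3 comparisons of cell types, filled where the adjusted p is under 0.05. PMAIP1, BAX, BAK1 and BCL2L11 are filled and negative for neurons against NESC, and BCL2L11 alone is filled for neurons against RGPC.

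The 4 calls in neurons rested on all 3 NESC libraries. Leaving out passage 5, 24 or 36 ended each of them, with 1 residual degree of freedom: PMAIP1 gave adjusted p = 0.0607, 0.0862 and 0.0833, BAX 0.0513, 0.103 and 0.0873, BAK1 0.0984, 0.102 and 0.109, and BCL2L11 0.0920, 0.127 and 0.122. Their log2 fold changes stayed negative in all 3 cases, from −5.12 to −4.79, −1.76 to −1.58, −1.22 to −1.08 and −1.10 to −1.05. Over all genes the same omissions left 927, 0 and 0 calls of 4013. By edgeR, 3 of the 9 members it tested fell (PMAIP1, BAX and BAK1), where 36.6% of all genes were called.

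For RGPC against NESC, limma called 0 members, with 2 at an unadjusted p under 0.05 (PMAIP1 and BCL2L11). By edgeR 0 members were called, with 1 at an unadjusted p under 0.05 (PMAIP1), and 0 of 13063 genes were. Outside the NESC range in RGPC lay BCL2L11 above and PMAIP1, BAX and BAK1 below, or 4 of 10 members, where 60.6% of all genes lay outside. The same count for neurons was 8 of 10 (BCL2L1 and BIK above, 6 below), where 79.3% of all genes lay outside. With the added demand of a 2-fold difference from the NESC mean it was 6 of 10 (BIK above, and PMAIP1, BAX, BAK1, BCL2 and BCL2L11 below), where 45.9% of all genes qualified, 21.4% lower and 24.5% higher.

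Neurons were also compared with RGPC, the 2 types made from NESC. BCL2L11 was the only member that fell (log2 −1.84 ± 0.23, limma, adjusted p = 0.0474), where 7.56% of all genes were called, 3.68% lower and 3.88% higher. PMAIP1 was 19.0-fold lower in FPKM in neurons than in RGPC (log2 −3.18 ± 0.42), with an adjusted p of 0.0513 by limma and 0.0103 by edgeR. It was called in place of BCL2L11 by edgeR, with a pseudocount of 0.1 (adjusted p = 0.0452) and with median-of-ratios scaling (0.0477). BAX gave −1.14 ± 0.24 (adjusted p = 0.0866) and BAK1 −0.91 ± 0.22 (adjusted p = 0.109), while BCL2L1 gave 0.76 ± 0.45 (adjusted p = 0.339). The BCL2L11 call was lost by edgeR (adjusted p = 0.108), with a pseudocount of 0.1 (0.0577), with median-of-ratios scaling (0.0536) and without passage 5, 24 or 36 (0.104, 0.151 and 0.147). This comparison and the other pair share libraries.

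Among NESC passages, 7 of 10 members were highest at passage 36, where 37.3% of all genes were, and 6 were lowest at passage 5, where 38.8% were. BBC3, BCL2, BID and BIK were at least 2-fold apart between the highest and lowest passage, where 31.5% of all genes were, and each of these 4 rests on fewer than 60 reads in any NESC library. MCL1 was 1.56 times, BCL2L1 1.64 times and BAX 1.29 times as high at passage 36 as at passage 5. BCL2L11 had the narrowest spread, at most 1.07-fold, but its 33, 27 and 37 reads are too few to resolve so small a difference. With 1 library per passage these differences were not tested.

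The order of levels was MCL1, then BAX, in all NESC and in RGPC. In NESC PMAIP1 and BCL2L1 followed, at levels that overlapped between passages, with BCL2 and BIK last. In RGPC PMAIP1 was 6th, close to BCL2L11 and BID, and in neurons it was last while BCL2L1 came before BAX. MCL1 stood above at least 95.6% of all genes of its library everywhere, and PMAIP1 above 87.2% at passage 36, 55.2% in RGPC and 21.7% in neurons.

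The genes whose profile over the 5 libraries lay closest to a member were found by the root mean square difference of centred log2(FPKM + 1), among 11175 genes with a symbol and at least 20 reads in a library. Nearest to PMAIP1 were LIN28A (0.43 apart), an RNA-binding protein of early progenitors, CLN6 (0.45) and CSDA (0.46). LIN28A stood at 178, 327 and 309 FPKM in NESC, 109 in RGPC and 6.16 in neurons. Nearest to BCL2L11 were CTDSP1 (0.087), RAB11FIP5 (0.097) and TESK2 (0.099), and CTDSP1 stood at 16.5, 15.4 and 16.4 FPKM in NESC, 32.1 in RGPC and 7.16 in neurons. Nearest to BIK were CATSPERG (0.22), JAG2 (0.24) and ZBTB7C (0.25), a likeness that starts from the few reads of BIK.

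Around the family, 8 lists of apoptosis genes were described by their counts. Of 91 entries 81 were in the table. The counts in neurons stand beside 13.3% of all genes called lower and 14.3% higher by limma, and no list was tested as a set. Every call below was lost without passage 24 or without passage 36, where limma called 0 of all genes (5157 and 5357 at an unadjusted p under 0.05). Among 9 other BCL2 family genes 1 fell in neurons and none rose, with a median log2 fold change of 0.02 against 0.01 over all genes. The one was BCL2L12, a BCL2-related protein, at 39.0, 36.1 and 31.1 FPKM in NESC, 28.1 in RGPC and 2.96 in neurons (−3.19 ± 0.19, limma, adjusted p = 0.0126), and its locus overlaps IRF3. BMF, a BH3-only protein that senses loss of attachment, was listed at 0 at passage 5 and stood at 4.27 and 2.71 FPKM at passages 24 and 36, 16.3 in RGPC (34 reads) and 15.2 in neurons, and did not pass (adjusted p = 0.426 in RGPC). BNIP3, induced by hypoxia, varied from 43.8 to 529 FPKM among NESC and stood at 40.8 in RGPC.

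Downstream of the membrane, 12 genes of the apoptosome and caspase list were tested, of which 1 rose and 2 fell in neurons, with a median of −0.39. PARP1, a DNA repair enzyme that caspases cut, stood at 167, 148 and 174 FPKM in NESC and fell to 57.1 (−1.49 ± 0.14, limma, adjusted p = 0.0194). AIFM1, a mitochondrial flavoprotein at 40.7, 33.7 and 42.0 FPKM in NESC, fell to 14.1 (adjusted p = 0.0286). The nuclease gene DFFB rose (adjusted p = 0.0301) but had at most 7 reads in any library. CYCS, which encodes cytochrome c, stood at 31.1, 18.8 and 17.9 FPKM in NESC, 8.75 in RGPC and 11.2 in neurons, and did not pass.

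Among inhibitors of apoptosis, 7 rows of 5 genes were tested, and 2 rows fell, both named BIRC5. BIRC5 encodes survivin, which also serves in mitosis. Its row with more reads stood at 32.4, 24.5 and 53.3 FPKM in NESC, 34.2 in RGPC and 3.48 in neurons (−3.004 ± 0.53, limma, adjusted p = 0.0414), and reads may be split between the rows. BIRC7, at 2.57 FPKM in RGPC and at most 1.96 in NESC, had 12 reads at most and did not pass. The list's median was 0.32.

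Of 21 damage response genes, a list that holds CDKN1A and MDM2, 6 fell in neurons and none rose. Their median log2 fold change was −1.06, with 6 positive and 15 negative. MDM2 stood at 30.7, 28.9 and 52.2 FPKM in NESC and 31.1 in neurons, and did not pass (−0.20, limma, adjusted p = 0.745). CDKN1A, which encodes the cell cycle inhibitor p21, fell from 151, 203 and 194 FPKM to 32.1 (−2.47 ± 0.23, limma, adjusted p = 0.0193). CCNG1, an atypical cyclin, stood at 299, 330 and 329 FPKM in NESC and fell to 76.2 (adjusted p = 0.0115). AEN, an apoptotic nuclease, stood at 41.6, 46.2 and 64.8 FPKM and fell to 8.99 (adjusted p = 0.0291). FAS, a death receptor whose locus overlaps ACTA2, stood at 7.90, 6.24 and 5.06 FPKM and fell to 1.17 (adjusted p = 0.0417).

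In RGPC none of these 21 passed, with 6 positive and 15 negative log2 fold changes. Their median was −0.61 against 0.10 over all genes. CDKN1A stood at 50.7 FPKM, below every NESC value (−1.82, limma, adjusted p = 0.209), as PMAIP1 did. XPC, among the positive, stood at 42.1 FPKM, above the 26.4 to 31.2 of NESC (0.57, limma, adjusted p = 0.334). BBC3, as given above, lay within the NESC range in both lone libraries.

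Among 8 death receptor genes 2 fell in neurons, FAS and CFLAR, with a median of −0.40. CFLAR, which encodes the caspase-8 inhibitor FLIP, fell from 13.0, 13.8 and 15.5 FPKM to 4.202 (−1.54 ± 0.20, limma, adjusted p = 0.0275). TNFRSF10B, a TRAIL receptor, stood at 9.94, 21.5 and 24.9 FPKM in NESC, 8.92 in RGPC and 1.62 in neurons, and passed by edgeR (adjusted p = 0.0237) and not by limma (adjusted p = 0.0614).

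Among 8 factors known to induce BH3-only genes 1 fell in neurons, E2F1, from 28.0, 33.8 and 43.8 to 7.74 FPKM (−2.03 ± 0.31, limma, adjusted p = 0.0341), with 57.5 in RGPC. The list's median was −0.15. FOXO3, a driver of BCL2L11, stood at 8.51, 4.81 and 8.30 FPKM in NESC, 11.8 in RGPC and 21.96 in neurons, which passed by edgeR (adjusted p = 0.0181) and not by limma (adjusted p = 0.0815), and is named here after its values were seen. DDIT3, a stress factor whose locus overlaps MARS1, was high at passage 36 alone, at 64.7 FPKM, and 6.85 in RGPC. TP73 had at most 13 reads.

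Of 8 genes known to control the stability of MCL1, NOXA or BIM, 3 rose in neurons and none fell, with a median of 0.67. BTRC, a ubiquitin ligase adaptor, rose from 19.0, 17.9 and 28.6 to 91.2 FPKM (2.04 ± 0.34, limma, adjusted p = 0.0392). TRIM2, a ligase reported to act on BIM, rose from 28.9, 23.5 and 32.7 to 95.4 FPKM (adjusted p = 0.0291), with 59.6 in RGPC. MARCHF5, a mitochondrial ligase, rose from 38.4, 37.6 and 38.8 to 62.0 FPKM (0.68 ± 0.10, adjusted p = 0.0307). Among 7 partners at the outer mitochondrial membrane 1 fell, the channel VDAC3, from 203, 200 and 202 to 90.9 FPKM (−1.14 ± 0.08, adjusted p = 0.0152), with a median of −0.38.

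**Figure D4:**
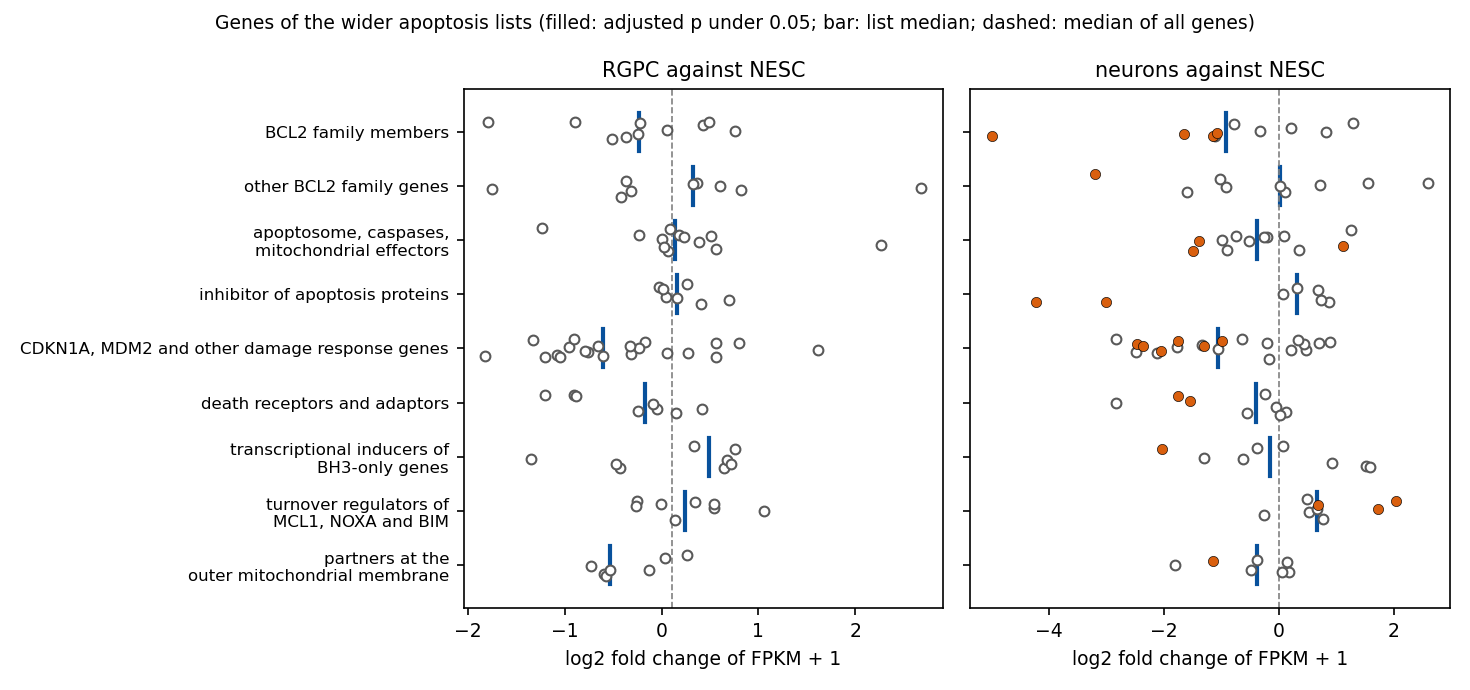
Log2 fold change of FPKM + 1 for every tested gene of the 10 members and 8 wider lists, in RGPC (left) and neurons (right) against NESC, with list medians as bars and the median of all genes dashed. Filled points (adjusted p under 0.05, limma) appear for neurons only, 4 of them members, all negative.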

How the data were processed

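Per the labels' protocols, mRNA was fragmented and reverse transcribed from random primers, and TruSeq libraries were run on a HiSeq 2500. Reads were aligned with TopHat2 2.0.9, per the submitters' processing notes. The sources used here name no counter, genome build or annotation, and coordinates are as deposited. The authors deposited FPKM (fragments scaled by transcript length and library size, per the file headers) and a normalized count per library. That deposited signal was whole reads times 1 factor per library, and division gave whole reads within 0.1 for all values but 1. Members and lists were chosen with earlier results of these data known.

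Genes with at least 1 FPKM in at least 1 library (14571) went into limma 3.58.1 (R 4.3.3, with a trend) on log2(FPKM + 1), two-sided, in 1 model of 3 groups with 2 residual degrees of freedom. RGPC and neurons, with 1 library each, were taken to vary as NESC do. P-values were adjusted by Benjamini-Hochberg over all genes, and 0.05 was the threshold. In a simulation, 200 genes were changed by a log2 fold of 3, with the same dispersion for every gene and no differences between passages. There both tests recovered most changed genes, and edgeR kept false calls within the threshold. limma made several times more false calls than its threshold allows, so its calls are less certain than their adjusted p says. This setting cannot show how either test fares on smaller changes or where passages differ, as they do here. edgeR 4.0.16 (quasi-likelihood, TMM) on recovered reads, a pseudocount of 0.1, no filter, at least 20 reads in a library, quantile and median-of-ratios scaling, and leaving out each NESC library were the alternatives.

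All members were named, and some list genes are not reported here. Lists contributed up to 4 genes past the threshold in neurons, by absolute log2 fold change. They also gave up to 2 whose RGPC level left the range of NESC and was 2-fold or more from their mean. BAD, BCL2L2, BOK, FOXO3, MDM2 and XPC were named outside this rule, with their values known. Where the table gave no symbol, RefSeq peptides named 2162 genes and gene IDs 1198, and 2633 genes stayed without one.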

Additional observations from a re-analysis of the deposited data

How the results depend on the processing

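Of 261 log2 fold changes of members under the 9 alternatives, 229 kept their direction and side of the threshold, 19 lost a call, 7 gained one and 6 turned. The 6 were BBC3 in RGPC without passage 5 (−0.070), BBC3 in neurons against NESC by edgeR (−0.040) and without passage 5 (−0.29), and BCL2L1 in RGPC with median-of-ratios scaling (−0.060), by edgeR (−0.11) and without passage 5 (−0.16). Leaving out each NESC library gave these 3 values ranges of −0.070 to 0.71, −0.29 to 0.49 and −0.16 to 0.19, and none was called in any setting. In neurons against NESC, 4 members were called under the 5 other limma settings that kept all libraries and 3 by edgeR. Leaving out a NESC library gave 0 members in each case by limma (4 to 6 at an unadjusted p under 0.05) and 0 to 927 genes of 4013. In neurons against RGPC, 3 members (BCL2L11, PMAIP1 and BAX) were called with at least 20 reads and 3 after quantile normalization, and 0 when a NESC library was left out (3 to 4 at an unadjusted p under 0.05). All genes called there numbered 1896 with no filter, 1850 with at least 20 reads and 0 to 530 without a NESC library, against 1101. In RGPC against NESC, 106 genes became 296 with no filter, 0 with at least 20 reads (1706 at an unadjusted p under 0.05), 0 by edgeR (1661) and 0 without any NESC library (1278 to 1987), and members stayed at 0 throughout. The cause of these changes was not tested. When a library is left out, 1 of 2 residual degrees of freedom is lost. BIK was filtered out by edgeR, and BIK and BCL2 were not tested with at least 20 reads. In RGPC the all-gene median, 0.10 on the log2 scale as deposited, moved by −0.13 (quantile) and −0.10 (median of ratios). No paired analysis was possible because RGPC and neurons have 1 library each. Depth limits BCL2, BIK and BBC3, which had at most 28 reads in a library.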
